A study of Mus musculus with 18 samples.

Results

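The 10 genes described here encode acyl-CoA synthetases, the enzymes that join a fatty acid or acetate to coenzyme A. They were taken by symbol from 22609 genes listed for every library: Acsl1, Acsl3, Acsl4, Acsl5 and Acsl6 of the long-chain family, Acsm3, Acsm5 and Acsf2 of the medium-chain families, and Acss1 and Acss2, which activate acetate. The samples were hearts, kidneys and livers of C57BL/6J mice, the common inbred strain, labelled wild type, from which messenger RNA was sequenced. The mice were 4 weeks old at the start and then ate either standard chow or a ketogenic diet, made of 90% fat, 9.7% protein and 0.3% carbohydrate, over 21 days. There were 3 libraries per organ and diet, called biological replicates in the labels, hence 18 libraries in 6 groups. The question put to each gene was whether its mRNA differed between the diets within an organ, and whether that difference was itself different between organs.

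A fatty acid is chemically inert until a synthetase activates it to an acyl-CoA at the cost of ATP. The acyl-CoA can then enter mitochondria through the carnitine shuttle for oxidation, or be built into triglycerides, phospholipids and cholesterol esters. The isoforms differ in the chain length they prefer and in the membrane they sit on, and that placement is thought to steer where the acyl-CoA goes. Heart and kidney live largely on fatty acid oxidation, whereas the liver both burns and makes fat and is the main source of ketone bodies.

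Total estimated counts were between 16135276 and 22767878 for heart libraries, 16173996 and 19923905 for kidney, and 18151967 and 23835383 for liver. Ketogenic replicates 1 and 2 of heart were nearly identical, and so were those of liver. For each pair of replicates, the chi-square of each gene's counts was taken, and its median over genes was 0.666 in that heart pair and 0.698 in that liver pair. Counting noise alone gives 0.455, and the other 16 pairs of replicates gave 1.23 to 4.20. Each near-identical pair was therefore summed and counted as 1 sample, which leaves 2 ketogenic samples against 3 chow samples in heart and in liver. All levels below are given for every library, and means ± SD count the pair as 1 sample. Levels are CPM, counts per 1000000 of the library scaled within an organ, or RPKM, the same per kilobase of exon with 1 scaling over all libraries, where genes or organs are compared. The markers of each organ's main cell type were high in that organ. For 5 cardiomyocyte genes in heart the sum was 48853 to 58110 CPM on chow and 61125 to 64613 on the ketogenic diet. For 5 proximal tubule genes in kidney it was 24212 to 37066 CPM. For 5 hepatocyte genes in liver it was 105815 to 114617 CPM on chow and 66710 to 70972 on the ketogenic diet. A few libraries stood apart. Chow heart replicate 3 held 4586 CPM of 3 atrial genes, against 1.60 to 44.5 CPM in the other 5 heart libraries. That library also held the adipocyte gene Plin1 at 1007 counts, against 4 to 12. Its median chi-square values were 4.11 and 3.78 to replicates 1 and 2, and those of ketogenic kidney replicate 1 were 3.05 and 4.20 to replicates 2 and 3, whereas every other pair lay at or below 2.50. Since the RNA came from tissue of many cell types, fewer cells of a type and less RNA per cell cannot be told apart.

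Different synthetases passed the diet test in different organs, and Acsl5 was the one gene that fell in all 3. In heart, 9 of the 10 genes were abundant enough to test; Acsf2, Acsm5 and Acsl1 rose, Acsl5 fell and 5 did not pass the test, which is 44.4% called against 12.1% of all 13609 genes tested there (6.25% higher and 5.81% lower). In kidney, Acss2 rose, Acsl5 fell and the other 7 of 9 did not pass, or 22.2% against 9.05% of 14526 genes (3.59% higher and 5.45% lower). In liver, Acsm3 and Acsl3 rose, Acsl5 and Acss2 fell and 5 of 9 did not pass. That is 44.4% against 36.8% of 13220 genes (19.2% higher and 17.6% lower), so the liver share lay near that of all genes. The median log2 fold change of the tested members was 0.46 in heart, -0.26 in kidney and 0.01 in liver, beside -0.03, 0 and 0.01 over all genes tested. The 3 libraries of 1 diet all lay above those of the other for 7 of 9 members in heart, 6 of 9 in kidney and 4 of 9 in liver, and for 44.4, 31.4 and 56.6% of all genes tested. To pass, a gene needed an adjusted p below 0.05 by edgeR's quasi-likelihood test with Benjamini-Hochberg adjustment over all genes tested, and every adjusted p below is from that test unless another is named. Log2 fold changes are ketogenic over chow with an approximate standard error (SE). Each SE was derived from the test, as the absolute log2 value over the square root of its F statistic.

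**Figure D1:**
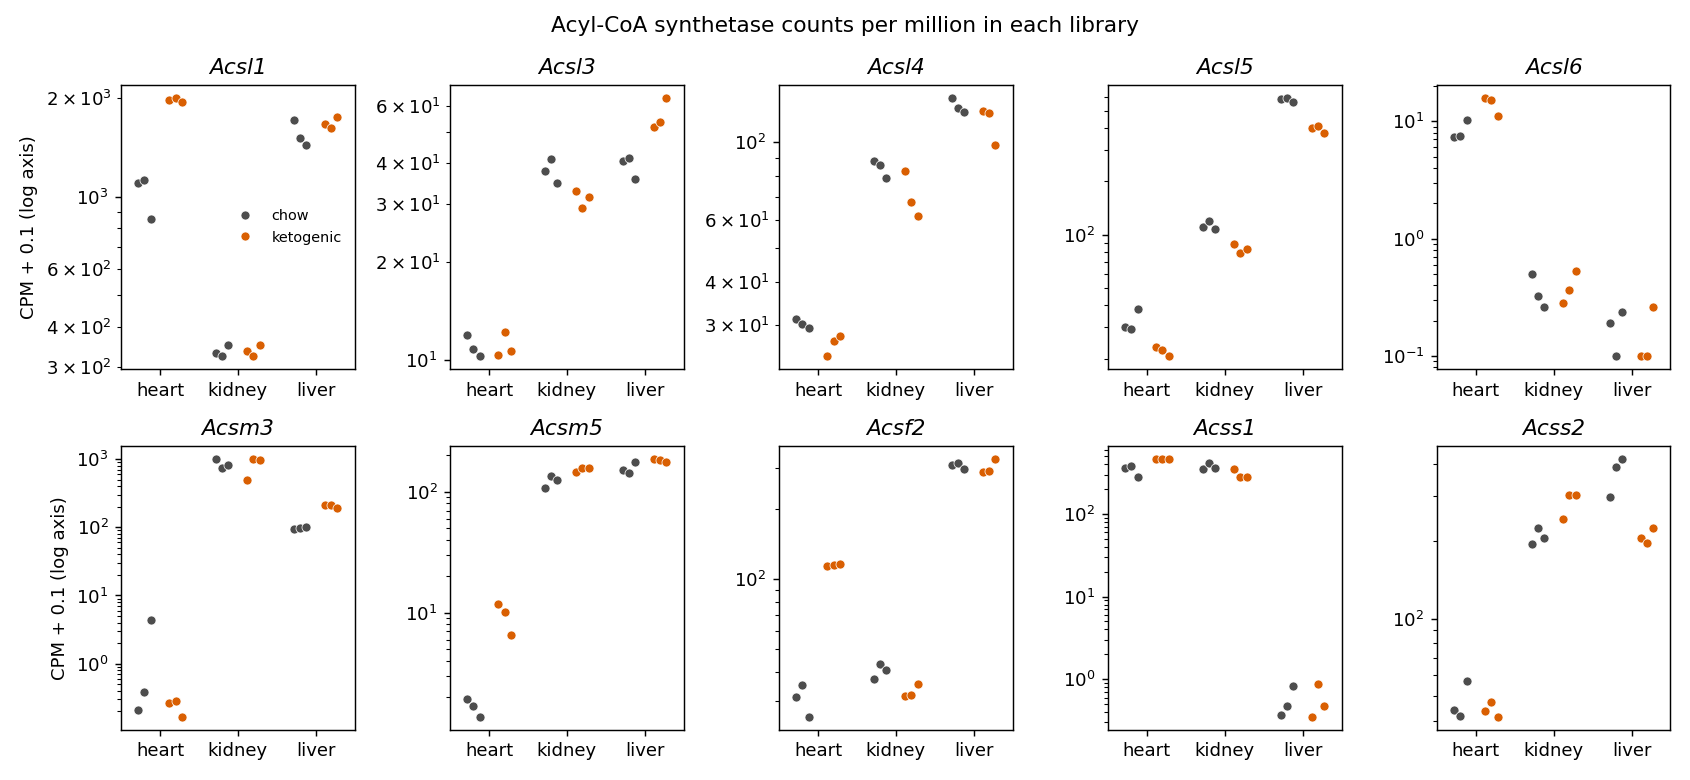
CPM (plus 0.1, log axis) of the 10 synthetase genes in each library, by organ on the horizontal axis; each point is 1 library, with chow in grey and the ketogenic diet in orange, replicates 1 to 3 from left to right. Acsl1, Acsm5 and Acsf2 are higher in all 3 ketogenic hearts, Acsl5 is lower in all ketogenic libraries of each organ, and Acsm3 is higher in the ketogenic livers.

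**Figure D2:**
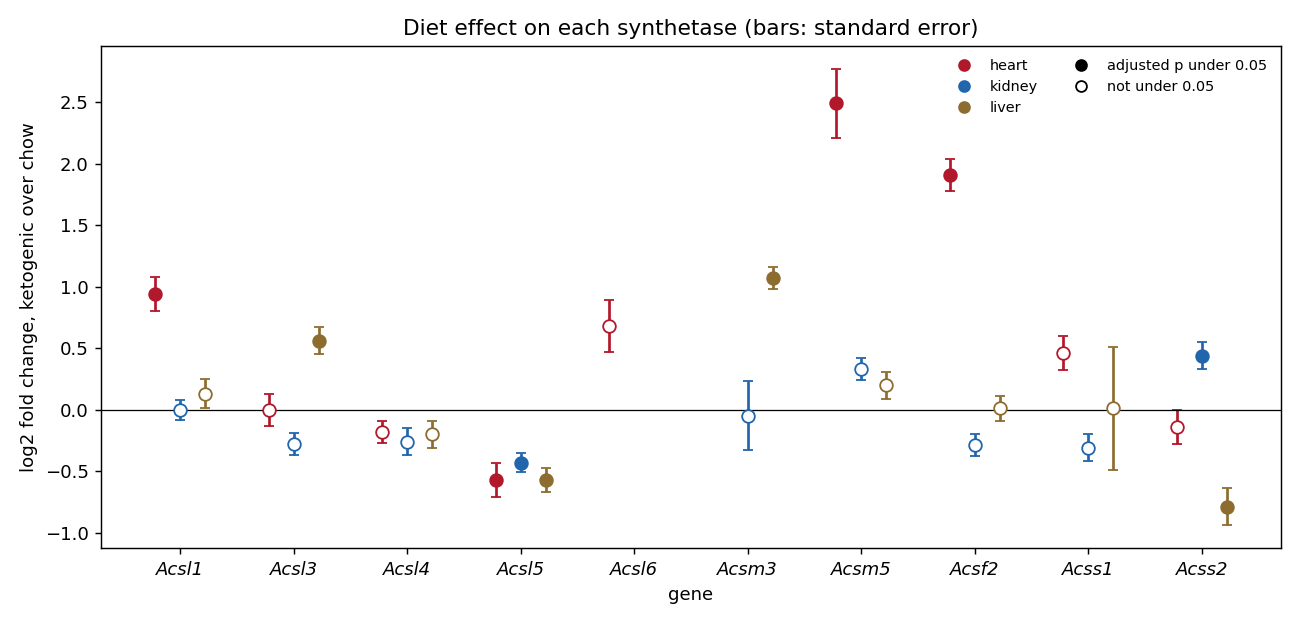
Log2 fold change, ketogenic over chow, of each gene in heart, kidney and liver; bars are the standard error and filled points passed at an adjusted p under 0.05. Acsm5 at 2.49 and Acsf2 at 1.91 in heart are the highest points, and Acss2 lies at 0.44 in kidney and at -0.79 in liver.

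On chow, the isoform that led depended on the organ. In heart the order by RPKM was Acsl1 (261 ± 38.1, SD, n = 3), Acss1 (93.2 ± 14.1), Acss2 (16.6 ± 2.85), Acsl5 (10.1 ± 1.48), Acsf2 (9.87 ± 1.57), Acsl4 (5.66 ± 0.186), Acsl3 (2.73 ± 0.213), Acsl6 (2.65 ± 0.525), Acsm5 (0.618 ± 0.110) and Acsm3 (0.527 ± 0.795). The libraries of neighbours overlapped for Acsl5 with Acsf2, Acsl3 with Acsl6, and Acsm5 with Acsm3, and not for the other steps. In kidney the medium-chain enzyme Acsm3 came first at 226 ± 36.0 RPKM, ahead of Acss1 (78.7 ± 8.13), Acsl1 (65.1 ± 2.05), Acss2 (55.6 ± 4.57), Acsm5 (37.0 ± 4.53), Acsl5 (26.8 ± 1.80), Acsl4 (12.0 ± 0.772), Acsf2 (9.91 ± 0.869), Acsl3 (7.20 ± 0.705) and Acsl6 (0.0635 ± 0.0292), with no overlap between any neighbours. In liver Acsl1 led with 561 ± 52.0 RPKM, then Acsl5 (257 ± 6.89), Acss2 (183 ± 31.8), Acsf2 (140.3 ± 4.36), Acsm5 (88.9 ± 9.77), Acsm3 (47.7 ± 1.03), Acsl4 (33.8 ± 1.65) and Acsl3 (13.9 ± 1.08), again without overlap. Acss1 and Acsl6 were close to absent from liver, at 5 to 16 and 0 to 3 counts in its 6 libraries.

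These organ differences passed the test for most members, as they did for most genes. Acsl6 outside heart and Acsm3 in heart were too scarce to be tested there, so members were counted where both organs could be tested. Between chow groups, 6 of 8 members differed for heart against kidney, 8 of 8 for heart against liver and 9 of 9 for kidney against liver, where 72.3, 78.9 and 74.9% of the genes tested in both organs did. The heart against kidney share of the members thus lay near that of all genes. Acsl1 was lower in kidney than in heart by 2.00 (SE 0.13) and than in liver by 3.11 (SE 0.13) on the log2 scale. Acsf2 did not differ between heart and kidney (log2 difference -0.01, SE 0.11, adjusted p = 0.950) and was lower in both than in liver, by 3.83 and 3.82. The heart minus kidney difference of Acss1 was 0.24 (SE 0.14), which did not pass, but it passed without chow heart replicate 3 (0.37, adjusted p = 0.0197). Under scaling by total count, where the median gene differed by 1.08 between kidney and liver against 0.13 before, the lower Acsl3 of kidney (-0.95) came to -0.00 and did not pass, and Acsf2 passed as lower in heart than in kidney at -0.39 (adjusted p = 0.00194).

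Acsl1 (chr8:47556396-47621404 on mm9, plus strand), the main long-chain isoform of heart, adipose tissue and liver, was higher in the ketogenic heart by 1.92-fold. Its level was 1098, 1125 and 857 CPM in chow hearts 1 to 3 and 1972, 2007 and 1944 CPM in ketogenic hearts 1 to 3. The diets did not overlap, and the lowest value was that of chow replicate 3. The log2 fold change was 0.94 (SE 0.14, adjusted p = 0.0100), 0.82 without chow replicate 3, and 0.96 without ketogenic replicate 3 and 0.92 without replicates 1 and 2 together, where it did not pass (adjusted p = 0.118 and 0.128; 1.46e-09 to 0.128 over all alternatives). Without 1 of the ketogenic samples only 1 is left, and 89 genes or 1 gene then passed in the heart as a whole, against 1642. In kidney Acsl1 was level, at 333, 326 and 351 CPM on chow and 336, 325 and 352 on the ketogenic diet (log2 fold change 0.00, SE 0.08, adjusted p = 0.984). In liver the 1713, 1509.5 and 1439.6 CPM of chow overlapped the 1666, 1619.5 and 1751 CPM of the ketogenic diet (0.13, SE 0.12, adjusted p = 0.424).

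Acsl5 (chr19:55327859-55371118, plus strand), a long-chain isoform of mitochondria and endoplasmic reticulum that is prominent in liver and intestine, fell in each organ. Its level fell from 580.3, 590.2 and 559 CPM in chow livers to 397, 411 and 373 in ketogenic livers. The corresponding kidneys went from 110.0, 119 and 107 CPM to 88.1, 79.0 and 82.7. Hearts went from 29.9, 29.2 and 37.9 CPM to 23.3, 22.2 and 20.6. No ketogenic library reached the lowest chow library of its organ. The log2 fold changes were -0.57 in liver (SE 0.10, adjusted p = 0.00147), -0.43 in kidney (SE 0.08, adjusted p = 0.0110) and -0.57 in heart (SE 0.14, adjusted p = 0.0376). The 3 falls did not differ from each other by the test of the difference: 0.04 (SE 0.17) for heart minus liver, -0.13 (SE 0.16) for heart minus kidney and 0.17 (SE 0.15) for kidney minus liver, with adjusted p of 0.925, 0.753 and 0.479. The liver call held under all 14 alternatives tried. The heart call did not pass without ketogenic replicate 3 (-0.50), without ketogenic replicates 1 and 2 together (-0.65), without chow replicate 1 (-0.63) or without chow replicate 2 (-0.64). The kidney call did not pass without ketogenic replicate 2 (-0.39) or chow replicate 1 (-0.45).

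Acsl3 (chr1:78654400-78704318, plus strand), an isoform of the endoplasmic reticulum that is found on growing lipid droplets, rose in liver. It stood at 40.5, 41.5 and 35.7 CPM in chow livers and at 51.4, 53.2 and 63.3 in ketogenic livers, without overlap. This rise of 0.56 on the log2 scale (SE 0.11, adjusted p = 0.00297) passed under all 14 alternatives. In kidney the 32.9, 29.0 and 31.4 CPM of the ketogenic diet lay below the 37.7, 41.0 and 34.6 of chow, and the difference of -0.28 (SE 0.09, adjusted p = 0.0846) did not pass, except without ketogenic replicate 1 (-0.32). In heart it was low and equal, at 10.2 to 11.8 CPM on chow and 10.3 to 12.1 on the ketogenic diet. An exon of Acsl3 overlaps Utp14b on the same strand, where reads would be split between both genes. Acsl3 had a non-whole value in 3 of the 18 libraries.

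Acsl4 and Acsl6, the isoforms known for preferring long polyunsaturated fatty acids, passed in no organ. Acsl4 (chrX:138752536-138825078, minus strand), which prefers arachidonate, had log2 fold changes of -0.18 (SE 0.09) in heart, -0.26 (SE 0.11) in kidney and -0.20 (SE 0.11) in liver. Its CPM in heart was 31.2, 30.2 and 29.4 on chow against 24.4, 26.9 and 27.8 on the ketogenic diet, without overlap, whereas the diets overlapped in kidney and in liver. The adjusted p was 0.216, 0.171 and 0.174, and the kidney value passed without ketogenic replicate 1 (-0.39) and the liver value without ketogenic replicates 1 and 2 together (-0.37). Acsl6 (chr11:54117326-54175041, plus strand), best known from brain, was measurable in heart, at 7.22, 7.35 and 10.2 CPM on chow and 15.7, 15.0 and 11.0 on the ketogenic diet. Its log2 fold change there was 0.68 (SE 0.21, adjusted p = 0.0780). It passed with DESeq2 (adjusted p = 0.0458), with the near-identical pair as separate libraries (0.0191), with the replicate block (0.0495) and without chow replicate 3 (0.89, adjusted p = 0.00129). In kidney Acsl6 had 3 to 8 counts a library and was not tested.

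Within the long-chain family, Acsl1 made up a larger share of the mRNA on the ketogenic diet in each organ. Its share of the summed Acsl RPKM was 93.2, 93.5 and 90.4% in chow hearts and 96.2, 96.3 and 96.5% in ketogenic hearts. In kidney it went from 58.2, 56.5 and 61.0% to 62.4, 64.8 and 66.3%, and in liver from 66.7, 63.7 and 63.8% to 72.5, 71.4 and 74.6%. The diets did not overlap in any organ. The share of Acsl5 went the other way, from 27.9, 30.7 and 30.6% to 21.3, 22.4 and 19.6% in liver and from 23.8, 25.4 and 23.0% to 20.2, 19.5 and 19.2% in kidney. The summed Acsl RPKM itself was 239.8 to 306 in chow hearts and 524 to 541 in ketogenic hearts, 109.7 to 113 in chow kidneys and 97.7 to 106 in ketogenic kidneys, and 814 to 928 in chow livers and 822 to 840.0 in ketogenic livers. The sum was thus higher in ketogenic hearts, lower in ketogenic kidneys and overlapping in liver. These shares are a description without a test.

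**Figure D3:**
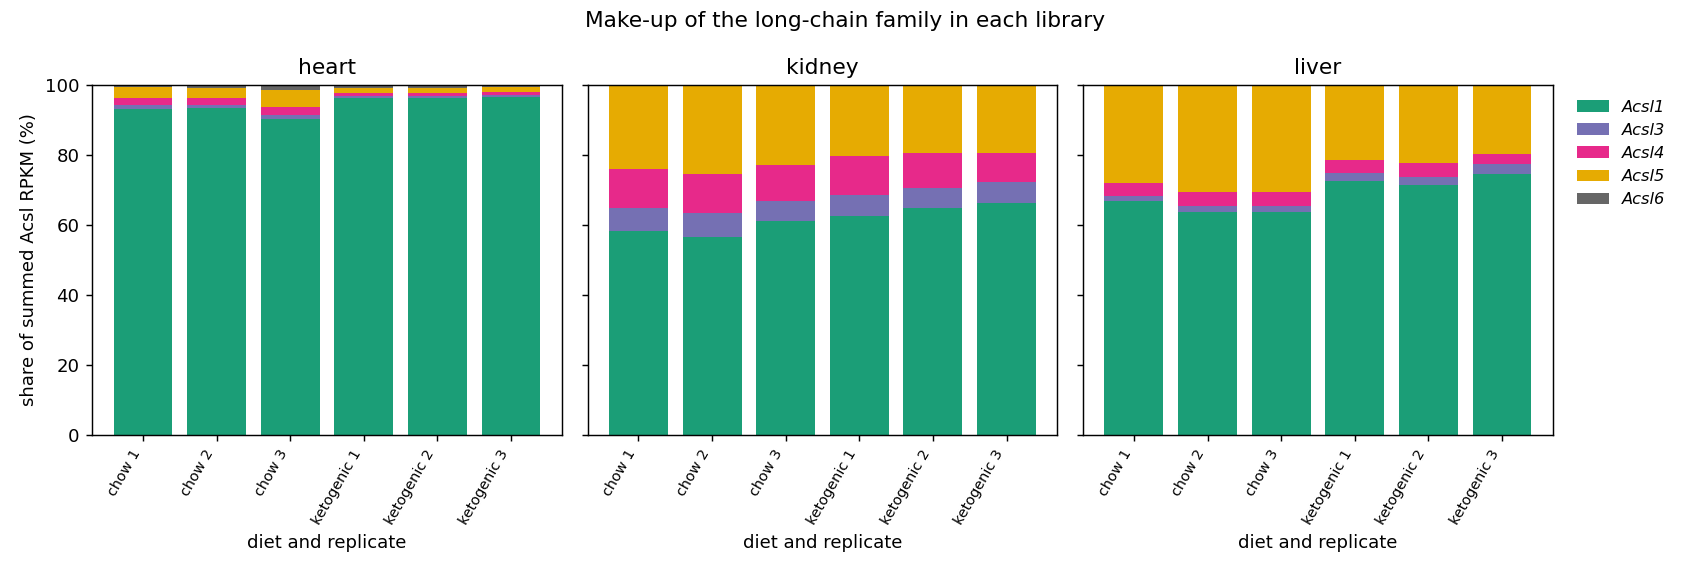
Share of the summed RPKM of the 5 long-chain genes (percent) in each library of heart, kidney and liver; each bar is 1 library and each colour 1 gene. The Acsl1 segment is larger and the Acsl5 segment smaller in all 3 ketogenic libraries of each organ.

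Acsf2 (chr11:94418416-94463100, minus strand), a mitochondrial enzyme of the medium-chain type, was 3.77-fold higher in the ketogenic heart. Its level was 31.1, 35.2 and 25.6 CPM in chow hearts and 114, 115 and 116 in ketogenic hearts. The 3 ketogenic libraries lay close together and far above the highest chow library, but replicates 1 and 2 are the near-identical pair counted as 1 sample. The log2 fold change of 1.91 (SE 0.13, adjusted p = 0.00139) was 1.80 without chow replicate 3 and did not pass without ketogenic replicates 1 and 2 together (1.93, adjusted p = 0.0502). By RPKM, Acsf2 stood next to Acsl5 on chow and ranked behind only Acsl1 and Acss1 on the ketogenic diet, at 38.0 ± 0.467 (n = 2), above Acss2 and Acsl5. In kidney it went the other way without passing, from 37.1, 43.3 and 40.8 CPM to 31.6, 31.9 and 35.4 (log2 fold change -0.29, SE 0.09, adjusted p = 0.0681). Under total-count scaling that kidney value passed at -0.38 (adjusted p = 0.0258). In liver, where the gene was highest, it was 296 to 315 CPM on chow and 289 to 329 on the ketogenic diet (0.01, SE 0.10).

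Acsm5 (chr7:126669779-126686874, plus strand) belongs to the medium-chain enzymes of the mitochondrial matrix. In heart it was scarce on chow, at 1.82, 1.58 and 1.28 CPM from 33, 28 and 31 counts. On the ketogenic diet it reached 11.6, 10.1 and 6.50 CPM from 218, 169 and 99 counts, so that the diets did not overlap. The log2 fold change of 2.49 (SE 0.28, adjusted p = 0.00400) was the highest among the members in heart and did not pass without ketogenic replicates 1 and 2 together (2.06, adjusted p = 0.0796). Even so, its ketogenic heart level of 3.51 ± 1.23 RPKM (n = 2) stayed far below the 37.0 of chow kidney and the 88.9 of chow liver. In kidney all 3 ketogenic libraries (145, 157 and 157 CPM) lay above the chow libraries (107, 134 and 126), and the difference of 0.33 (SE 0.09, adjusted p = 0.0643) did not pass; it passed with DESeq2 (adjusted p = 0.0232) and without ketogenic replicate 1 (0.36, adjusted p = 0.0151). In liver 176 to 188 CPM on the ketogenic diet overlapped 144 to 177 on chow (0.20, SE 0.11, adjusted p = 0.179).

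Acsm3 (chr7:126904437-126928410, plus strand), a medium-chain enzyme of mitochondria, rose in liver. Its level was 95.7, 96.4 and 99.6 CPM in chow livers and 213, 211 and 195 in ketogenic livers. The spread within each diet was small beside the gap between them, but ketogenic replicates 1 and 2 are the near-identical pair counted as 1 sample. It rose by 1.07 on the log2 scale (SE 0.09, adjusted p = 1.42e-05), with a range of 1.00 to 1.12 over 14 alternatives that all passed. In kidney, where Acsm3 was most abundant, chow libraries held 1021, 742 and 816 CPM and ketogenic libraries 487, 1020.1 and 986. Ketogenic replicate 1 was the lowest of all 6, and with it the log2 fold change was -0.05 (SE 0.28, adjusted p = 0.936), without it 0.22. That library also held 26229 CPM of the 5 proximal tubule markers, against 37066 and 33846 in ketogenic replicates 2 and 3 and 24212 to 26241 on chow. Between the diets in kidney, 0 of these 5 markers passed as higher and 1 as lower. Any part of tubule content in the Acsm3 value was not tested. In heart Acsm3 was near absent, with 2 and 5 counts in chow replicates 1 and 2 and 1 to 3 counts on the ketogenic diet. It had 102 counts in chow replicate 3, the library with atrial genes and the adipocyte gene Plin1.

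The promoters of the members that rose together in heart, and of Acsl5, are shown here to compare genes whose mRNA moved with the diet. Each line gives the 150 bases before a RefSeq start site (GRCm38.p6), 5′ to 3′ on the gene's own strand, and capitals mark a searched motif.
Acsl1, chr8:46470887-46471036, plus strand: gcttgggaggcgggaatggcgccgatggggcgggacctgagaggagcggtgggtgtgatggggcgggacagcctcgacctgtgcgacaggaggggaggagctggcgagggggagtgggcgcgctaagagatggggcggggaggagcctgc
Acsl1, chr8:46490816-46490965, plus strand: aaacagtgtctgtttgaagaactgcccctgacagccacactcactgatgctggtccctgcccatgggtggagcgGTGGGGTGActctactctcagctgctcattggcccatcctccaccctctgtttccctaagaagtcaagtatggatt
Acsm5, chr7:119526115-119526264, plus strand: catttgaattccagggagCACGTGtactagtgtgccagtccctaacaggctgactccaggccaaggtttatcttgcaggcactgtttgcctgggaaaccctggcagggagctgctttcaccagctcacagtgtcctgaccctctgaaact
Acsf2, chr11:94601787-94601936, minus strand: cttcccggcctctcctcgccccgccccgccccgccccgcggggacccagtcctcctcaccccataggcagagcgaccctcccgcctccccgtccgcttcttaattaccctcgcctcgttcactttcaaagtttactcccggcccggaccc
Acsl5, chr19:55253219-55253368, plus strand: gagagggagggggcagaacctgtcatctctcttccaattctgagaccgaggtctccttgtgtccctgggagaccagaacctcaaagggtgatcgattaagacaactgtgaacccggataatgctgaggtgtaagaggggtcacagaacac
All 10 members had a RefSeq window, 13 windows in all, from 250 bases before to 50 after the start. The search covered both strands. TCACNCCAC, a form of the sterol regulatory element, was found in 1 member window, that of the downstream Acsl1 start, 76 bases before it on the opposite strand, and in 1.24% of all 32851 windows. CACGTG, the E-box, was found in 1, that of Acsm5, 132 bases before the start, and in 7.15% of all windows. A direct repeat of AGGTCA with 1 base between the copies, the kind of element that PPAR receptors bind, was found in no member window, either exact (0.0396% of all windows) or with at most 1 mismatch (0.554%). The windows differed in base composition: the upstream Acsl1 window held 74.0% G and C with 30 CpG and that of Acsf2 69.3% with 29, against 51.3% with 1 CpG for Acsm5, 50.0% with 4 for the downstream Acsl1 start and 53.0% with 9 for Acsl5. The median of all windows was 52.7% with 7 CpG. The genes that rose in heart thus include both CpG-rich and CpG-poor windows.

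Acss1 and Acss2, which activate acetate in mitochondria and in the cytosol and nucleus respectively, were divided by organ. Acss2 (chr2:155343779-155388479, plus strand), which feeds acetate into fatty acid and sterol synthesis, rose in kidney and fell in liver. Kidneys held 196, 225 and 207 CPM on chow and 244, 304 and 304 on the ketogenic diet. Livers held 297, 390.3 and 421 CPM on chow and 206, 198 and 225 on the ketogenic diet. The diets did not overlap in either organ. The difference was 0.44 on the log2 scale in kidney (SE 0.11, adjusted p = 0.0383) and -0.79 in liver (SE 0.15, adjusted p = 0.00223). The kidney rise did not pass without any one of ketogenic replicates 2 and 3 or chow replicates 1, 2 and 3 (0.39 to 0.49, adjusted p = 0.0563 to 0.168), and it was 0.54 without ketogenic replicate 1. The liver fall did not pass without ketogenic replicates 1 and 2 together (-0.71, adjusted p = 0.0592). In heart Acss2 was at 44.0, 41.7 and 57.1 CPM on chow and 43.4, 47.2 and 41.3 on the ketogenic diet (-0.14, SE 0.14, adjusted p = 0.557).

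Acss1 (chr2:150443847-150493976, minus strand) was abundant in heart and kidney and passed in neither. In heart it had 360.0, 376 and 282 CPM on chow and 468, 466 and 465 on the ketogenic diet, without overlap. The log2 fold change of 0.46 (SE 0.14, adjusted p = 0.0692) passed with DESeq2 (adjusted p = 0.0110), with the pair as separate libraries (0.0169), with the replicate block (0.0229) and without chow replicate 3 (0.34, adjusted p = 0.00209). In kidney the 347, 281 and 283 CPM of the ketogenic diet lay below the 351, 414 and 361 of chow (-0.31, SE 0.11, adjusted p = 0.127), and it passed without ketogenic replicate 1 (-0.41, adjusted p = 0.00879). The share of Acss1 in the summed RPKM of both genes was 58.6, 59.2 and 57.9% in chow kidneys and 52.8, 42.2 and 42.4% in ketogenic kidneys. In heart that share was 86.6, 87.7 and 79.5% on chow and 89.5, 88.6 and 89.9% on the ketogenic diet. In liver it was at most 0.311%, from 5 to 16 Acss1 counts a library, so Acss2 was nearly the whole of the pair there.

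The test of the difference between organs was applied to each member in 1 model of all 6 groups. Against kidney, the diet effect in heart was larger for Acsf2 by 2.22 on the log2 scale (SE 0.16, adjusted p = 9.37e-06), for Acsm5 by 2.22 (SE 0.26, adjusted p = 5.39e-04) and for Acsl1 by 0.95 (SE 0.19, adjusted p = 0.0149). That is 3 of the 8 members tested in both organs, where 2.94% of such genes passed. Against liver, the diet effect in heart was larger for Acsf2 by 1.95 (SE 0.17, adjusted p = 1.03e-05), Acsm5 by 2.38 (SE 0.27, adjusted p = 6.35e-05) and Acsl1 by 0.86 (SE 0.20, adjusted p = 0.00579). For Acss2 the difference was 0.70 (SE 0.22, adjusted p = 0.0354). It came with a fall in liver (-0.79) and -0.14 in heart, which did not pass. The diet effect in heart was lower for Acsl3, with a difference of -0.51 (SE 0.16, adjusted p = 0.0309). These are 5 of the 8 members tested in both organs, where 29.2% of such genes passed. The Acsl3 and Acss2 values did not pass in 7 and 11 of 27 alternatives. Acsm3, too scarce in heart to be tested there, entered this model through its kidney and liver counts and is left out of the count. Its value of -4.60 (SE 1.49, adjusted p = 0.0438) did not pass in 16 of 26 alternatives, and came to -1.54 (adjusted p = 0.463) without chow heart replicate 3, which holds 102 counts. Between kidney and liver 2 of 9 differed, beside 26.2% of the genes tested in both: Acss2 by 1.26 (SE 0.21, adjusted p = 9.19e-04) and Acsl3 by -0.81 (SE 0.14, adjusted p = 0.00135). Passing in 1 organ only was not always a difference between organs. Acsm3, called in liver and not in kidney, gave -1.08 for kidney minus liver (SE 0.74, adjusted p = 0.341). It passed there without chow heart replicate 3 (-1.09, adjusted p = 0.0280). Acss2, called in kidney and not in heart, gave -0.56 for heart minus kidney (SE 0.21, adjusted p = 0.194). The 3 comparisons share their groups, so their values are not independent of each other.

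Other genes of the same route were read from lists chosen with earlier results of these data known. Of all genes tested, 6.25% passed as higher and 5.81% as lower in heart. In kidney these shares were 3.59 and 5.45%, and in liver 19.2 and 17.6%. The counts of each list, here and below, are to be read beside them. Of 8 further synthetases, Acsf3, a mitochondrial malonyl-CoA synthetase, rose in heart by 0.45 (SE 0.10, adjusted p = 0.0336) and the other 2 of 3 tested did not pass. In kidney 0 of 6 passed by edgeR, 3 had an unadjusted p under 0.05 and DESeq2 called 2 higher. In liver Acss3 rose by 0.70 (SE 0.18), Acsm2 had a log2 fold change of -2.21 (SE 0.55) and passed, and 3 of 5 did not pass. That is 40.0% called, near the 36.8% of all genes tested in liver. Of the 6 fatty acid transport proteins, membrane proteins that also activate very long chains, Slc27a1 rose in all 3 organs, by 1.39 (SE 0.13) in heart, 0.55 (SE 0.09) in kidney and 1.10 (SE 0.16) in liver. Slc27a2 rose by 0.84 (SE 0.14) in kidney and 0.67 (SE 0.11) in liver. The other 3 tested in each organ did not pass. In liver the 40.0% of this list that passed also lay near the 36.8% of all genes tested. So Slc27a1 rose where Acsl5 fell in each organ. Without ketogenic heart replicates 1 and 2 together Slc27a1 (1.26) and Acsf3 (0.37) did not pass the threshold in heart, and Acsf3 missed it when ketogenic replicate 3 (0.53), chow replicate 1 (0.40) or chow replicate 2 (0.45) was left out and under total-count scaling (0.31). In kidney Slc27a1 (0.49) and Slc27a2 (0.77) did not pass without chow replicate 1, nor Slc27a2 without chow replicate 3 (0.82). In liver Acss3 (0.64) and Acsm2 (-2.40) did not pass without ketogenic replicate 3, nor did they without replicates 1 and 2 together (0.76 and -1.96), and Acsm2 did not without chow replicate 2 (-2.23).

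Downstream of activation, the 9 genes of mitochondrial entry and oxidation rose in heart, 9 of 9, where 6.25% of all genes tested rose. Their median log2 fold change in heart was 1.09 beside -0.03 for all genes. The 4 with the smallest adjusted p there were Hadha, of the trifunctional protein (1.44, SE 0.16), the carnitine palmitoyltransferases Cpt2 (1.31, SE 0.15) and Cpt1b (1.12, SE 0.14), and the carnitine carrier Slc25a20 (1.09, SE 0.13). The Acsl1 value of 0.94 lies just below those. None of the 9 passed without ketogenic heart replicate 3, or without replicates 1 and 2 together. In liver 6 of 9 rose, beside 19.2% of all genes tested, with a median of 0.70. They were led by the medium-chain dehydrogenase Acadm (1.10, SE 0.10) and Cpt1a (0.91, SE 0.11). In kidney 3 of 9 rose, beside 3.59% of all genes tested, with a median of 0.29. When 1 kidney library was left out, 0 to 5 passed. Of 10 genes of glycerolipid synthesis, the other main use of long-chain acyl-CoA, 4 rose in heart: Gpam, the first acyltransferase (1.57, SE 0.13), Agpat3 (0.88, SE 0.09), Agpat9 (0.81, SE 0.12) and Dgat2 (0.57, SE 0.09). In kidney Lpin1 (0.85, SE 0.14) and Lpin2 (0.47, SE 0.07) rose, and in liver Agpat9 (1.77, SE 0.15) and Lpin2 (0.67, SE 0.15), with 8 of 10 not passing in each. Of 5 acyl-CoA binding proteins, 0 passed in heart by edgeR (1 at an unadjusted p under 0.05, and 1 higher by DESeq2). Acbd5 rose in kidney (0.40, SE 0.09). In liver 40.0% passed, near the 36.8% of all genes tested: Acbd5 (0.36, SE 0.10) and Acbd4 (0.40, SE 0.11), which rose. Of these genes, Gpam (1.56), Agpat3 (0.86), Agpat9 (0.85) and Dgat2 (0.57) did not pass in heart without ketogenic replicates 1 and 2 together, and all but Gpam did not without replicate 3 (0.90, 0.78 and 0.58); nor did Dgat2 without chow replicate 2 (0.60). Lpin1 did not pass in kidney without chow replicate 1 (0.80) or 3 (0.85), and when 1 kidney library was left out Acbd5 passed only without ketogenic replicate 1. In liver Lpin2 did not pass without ketogenic replicate 3 (0.41), Acbd4 without chow replicate 3 (0.31), and neither Acbd4 (0.36) nor Acbd5 (0.33) without ketogenic replicates 1 and 2 together.

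Acss2 has a place in 2 routes that moved apart in liver. All 7 genes of fatty acid synthesis from acetyl-CoA fell there, with a median of -1.09, beside 17.6% of all genes tested in liver. They include the desaturase Scd1 (-6.24, SE 0.20), the carboxylases Acacb (-2.33, SE 0.11) and Acaca (-1.09, SE 0.12) and the elongase Elovl6 (-1.20, SE 0.13). All 7 tested genes of sterol synthesis and uptake rose in the same livers, with a median of 0.67, where 19.2% of all genes tested rose. Among them were the isomerase Idi1 (1.32, SE 0.14) and the squalene epoxidase Sqle (0.69, SE 0.10). Acss2, at -0.79 in liver, moved in the direction of the first group. In kidney, where Acss2 rose, 0 of 7 fatty acid genes passed by edgeR (1 at an unadjusted p under 0.05, and 0 by DESeq2) and 1 of 7 sterol genes fell, Fdps (-0.76, SE 0.16), which missed the threshold when ketogenic replicate 2 (-0.65), ketogenic replicate 3 (-0.73), chow replicate 1 (-0.75) or chow replicate 2 (-0.67) was left out. In heart the median of the 7 fatty acid genes was -1.62, with 5 not passing, and chow replicate 3 stood apart. Fasn, the fatty acid synthase, had 69.5, 73.8 and 1282 CPM in chow hearts 1 to 3 and 64.9 to 69.1 in ketogenic hearts. Its log2 fold change of -2.85 (SE 1.95) came to -0.12 without chow replicate 3, and that of Scd1 went from -4.29 (SE 2.74) to -0.18. The 2 that rose in heart were Me1 (0.95, SE 0.08) and Acacb (1.01, SE 0.11), and the sterol gene Fdft1 rose as well (0.91, SE 0.11). None of these heart calls passed without ketogenic replicates 1 and 2 together (0.98, 0.94 and 0.79), nor did Acacb without replicate 3 (1.08). Hmgcs1 was listed at 0 in all 18 libraries.

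**Figure D4:**
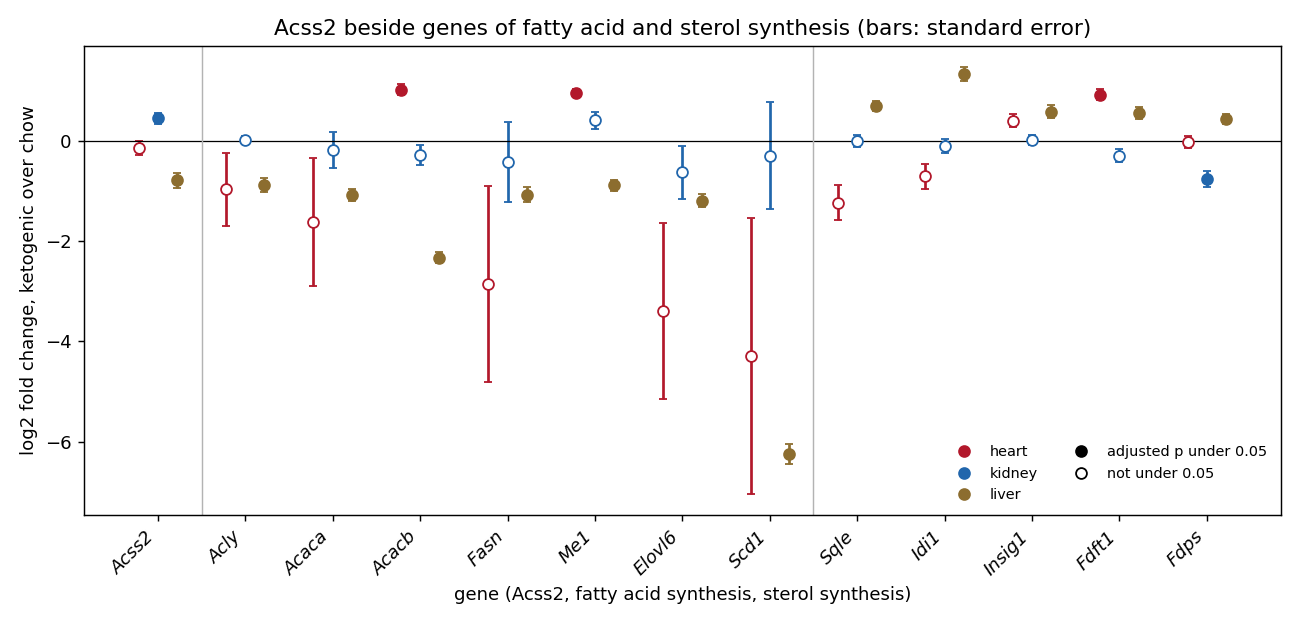
Log2 fold change, ketogenic over chow, of Acss2 (left), 7 genes of fatty acid synthesis (middle) and 5 genes of the sterol list, where Insig1 is a regulator of sterol synthesis (right) in heart, kidney and liver; bars are the standard error and filled points passed at an adjusted p under 0.05. In liver the fatty acid genes and Acss2 lie below 0 and the 5 sterol genes above it, while the heart points of Fasn, Elovl6 and Scd1 have wide bars.

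Markers of other cell types moved with the diet in places. In heart the summed level of 7 macrophage genes was 481 to 544 CPM on chow and 293 to 299 on the ketogenic diet. Of these, 6 of 7 fell, beside 5.81% of all genes tested in heart. The 7 erythroid genes summed to 4577 to 6566 CPM on chow and 1112 to 2595 on the ketogenic diet, and 0 of 7 passed by edgeR, with 5 at an unadjusted p under 0.05 and 5 lower by DESeq2. The 7 adipocyte genes summed to 379 to 545 CPM in hearts, highest in chow replicate 3, where Adipoq had 589 counts against 1 to 6 in the other 5 hearts. In ketogenic livers they summed to 90.7 to 152 CPM, against 4.53 to 6.38 on chow. Of these, Cfd and Cidec rose, Fabp4 did not pass, and Adipoq, Plin1, Retn and Lep had 0 to 2 counts in every liver. In kidney they summed to 402, 59.7 and 414 CPM on the ketogenic diet and 53.5, 158 and 159 on chow. The 5 hepatocyte genes summed to less in every ketogenic liver than in any chow liver, as given above. Of these, 3 of 5 fell, beside 17.6% of all genes tested in liver. The 5 cardiomyocyte genes summed to more in every ketogenic heart than in any chow heart. By edgeR 0 of these 5 passed, with 1 at an unadjusted p under 0.05 and 1 higher by DESeq2. The part of these cells in the synthetase values was not tested. Chow heart replicate 3 held the atrial RNA and the high Adipoq and Plin1 counts. Without that library Acsl1, Acsf2, Acsm5 and Acsl5 were at 0.82, 1.80, 2.39 and -0.44 in heart and passed. More genes passed in heart without it, 3742 against 1642, so passing there was easier. Chow heart replicates 1 and 2 held 544 and 496 CPM of the macrophage genes and 4577 and 5528 CPM of the erythroid genes. These sums also lay above those of the ketogenic hearts, so both marker differences remain without chow replicate 3.

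The genes whose levels followed each member most closely over the 16 samples of the 3 organs were taken by Pearson's r of log2 CPM among 10409 genes, as a description in which organ identity dominates. Acss1 was followed by Ldhb, a heart-type lactate dehydrogenase subunit (0.999), and Arhgap10 (0.997), and Acsl5 by the retinol dehydrogenase Rdh11 (0.998) and Nelf (0.995). Acsl1 was followed by Optn (0.993) and Acaa2, a thiolase of mitochondrial oxidation (0.992), Acsl3 by the apolipoprotein Apoa4 (0.992) and Pgrmc1 (0.987), and Acsl4 by Uhrf2 (0.992) and Hacl1 (0.990). For Acsl6 they were Adamtsl5 (0.985) and the cardiac troponin Tnni3 (0.983), for Acsm3 Erc2 (0.991) and Dpp7 (0.990), and for Acsm5 Sord (0.987) and D6Wsu116e (0.985). For Acsf2 they were Rmnd5a (0.983) and Fbxo21 (0.980), and for Acss2 Afmid (0.989) and Ammecr1l (0.988). These points share organ and library, so the values carry no test.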

How the data were processed

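The deposited values are estimated counts per gene. Per the file headers, the authors counted read pairs on exons of a UCSC annotation of mm9 with featureCounts 1.5.0, the strandedness setting at 2 and mapping quality of at least 2, splitting multi-mapping and overlapping reads into fractions. The submitters' processing notes name HISAT2 2.1.0 as well. Libraries were stranded and made from RNA with an integrity number above 4, per the labels' protocols. Here the counts were rounded, near-identical pairs summed, genes kept by filterByExpr, scaled by TMM and tested with edgeR 4.0.16 in R 4.3.3, per organ for the diets and in 1 model of 16 samples for organ differences. The code was tested on simulated data. Members and lists were chosen with earlier results of these data known. Named list genes are up to 4 per list and organ that passed, by smallest adjusted p, and for each member the 2 genes with the highest correlation; marker genes, Utp14b, Hmgcs1 and genes named beyond this were chosen after their values were seen. A few further genes given by this rule are not reported here. The labels do not say whether each library is a separate mouse, so p-values measure the spread between libraries, and the labels do not say that replicate numbers pair libraries. Alternatives were scaling by RLE or by total count, a filter of CPM 1 in 3 libraries or none, DESeq2 1.42.0, separate pairs, a replicate block and leaving out libraries.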

Additional observations from a re-analysis of the deposited data

Results flagged for a closer look

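The diet effect of several members differed between organs by the test of the difference itself, on the log2 scale. Heart minus kidney gave 2.22 for Acsf2, 2.22 for Acsm5 and 0.95 for Acsl1. Heart minus liver gave 1.95 for Acsf2, 2.38 for Acsm5, 0.86 for Acsl1, 0.70 for Acss2, -0.51 for Acsl3 and -4.60 for Acsm3. Kidney minus liver gave 1.26 for Acss2 and -0.81 for Acsl3. The Acsl1 value for heart minus kidney did not pass without ketogenic heart replicate 3 (0.96), ketogenic heart replicates 1 and 2 together (0.93) or chow kidney replicate 3 (0.90). The Acsm3 value rests on few heart counts, as given above.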

How the results depend on the processing

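Of 355 diet effects of members recomputed under alternatives, 313 kept direction and side of the threshold, 16 no longer passed, 15 newly passed and 11 changed sign. For differences between organs these numbers were 748, 37, 5 and 17 of 807, and for chow levels 799, 1, 2 and 5 of 807. No value that changed sign had passed. Leaving out 1 sample moved the number of passing genes from 1642 to between 1 and 3742 in heart, from 1314 to between 412 and 3402 in kidney and from 4868 to between 2645 and 4759 in liver. For the differences it moved 392 to 96 to 671 for heart minus kidney, 3695 to 2111 to 3843 for heart minus liver and 3415 to 1651 to 3917 for kidney minus liver. The extremes came without ketogenic heart replicates 1 and 2 (1 and 96), chow heart replicate 3 (3742 and 3917), chow kidney replicate 1 (412), ketogenic kidney replicate 1 (3402, 671 and 3843) and ketogenic liver replicates 1 and 2 (2645, 2111 and 1651). Where a group kept 1 sample, that sample is assumed to vary like the others.

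With the near-identical pairs as separate libraries 3317 genes passed in heart and 842 for heart minus kidney, and with DESeq2 903 for the latter. The replicate block, with all libraries separate, gave 2732 in heart, 810 in kidney and 709 for heart minus kidney. By their deviations from the group means, same-numbered libraries of the 2 diets in an organ correlated at -0.17 to 0.14, and 2, 0 and 2 of 3 matched their own number best in heart, kidney and liver. Same-numbered libraries of 2 organs on 1 diet correlated at -0.14 to 0.17, and 8 of 18 matched their own number best. With few libraries a group and near-identical pairs in ketogenic heart and liver, this cannot decide whether the numbers pair libraries. The labels give no pairing, so none was used in the main fits. The model of all groups thus treats libraries of different organs as independent. Of the members, the block changed the calls of Acsl6 (0.75) and Acss1 (0.47) in heart, which passed under it as under separate pairs. Sign changes near 0 were Acsf2 in liver (-0.02 with separate pairs and with the block), Acss1 in liver (-0.02 with DESeq2), Acsl4 for heart minus liver (-0.13 under total count, -0.01 with separate pairs and with the block), Acsl5 for heart minus liver (-0.16 under total count) and, on chow, heart minus kidney of Acsf2 (0.01 with RLE and DESeq2) and Acss1 (-0.14 under total count). When samples were left out, values ran from -0.22 to 0.02 for Acss2 in heart, -0.23 to 0.22 for Acsm3 in kidney, and -0.08 to 0.10 and -0.27 to 0.36 for Acsf2 and Acss1 in liver. For heart minus liver they ran from -0.11 to 0.27 for Acsl4, -0.05 to 0.14 for Acsl5, -0.33 to 4.96 for Acsl6 and -0.01 to 1.07 for Acss1. For chow heart minus kidney they ran from -0.12 to 0.11 for Acsf2. For kidney minus liver they ran from -0.21 to 0.18 for Acsl4, -0.85 to 4.45 for Acsl6 and -0.79 to 0.29 for Acss1. The cause was not tested.

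Under scaling by total count the median gene went from -0.03 to -0.17 in heart, from -0.02 to -0.21 for heart minus liver and from 0.02 to -0.11 for kidney minus liver, and between chow organs from -0.06 to -0.44, 0.06 to 0.63 and 0.13 to 1.08. The share of passing genes that were higher went with it in heart from 51.8 to 24.4%, in kidney from 39.7 to 25.3%, from 56.6 to 40.2%, 52.4 to 27.1% and 51.4 to 31.0% for the 3 differences, and from 47.9 to 31.3%, 52.1 to 70.6% and 54.7 to 85.3% between chow organs. Few counts lie behind Acsl6 outside heart, Acss1 in liver, Acsm3 in heart and Acsm5 in chow hearts (28 to 33).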
